A study of Mus musculus with 6 samples.

Results

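The intermediate filament and lamin genes were examined in C2C12 cells, an established line of mouse myoblasts. They form a list of named genes, with no measured value in its rule: *Des*, *Vim*, *Nes* and *Synm*, which encode cytoplasmic filaments of muscle precursors and muscle, *Lmna*, *Lmnb1* and *Lmnb2*, which encode the nuclear lamins, and *Krt8* and *Krt18*, which encode a keratin pair of simple epithelia. Of these 9 genes, 8 were found among the 14548 genes of the expression files, and *Krt18* was not analysed here. RNA-seq libraries of 3 WT and 3 MSTN-KO samples were compared, all labelled as myoblasts of skeletal muscle. The MSTN-KO samples came from the line C11, into which a CRISPR/Cas9 plasmid against *Mstn* (myostatin, a secreted inhibitor of muscle growth) had been electroporated. C11 is also the strain given for the WT samples, so the groups were taken from the genotype. No treatment, dose or time was given, and the cells were grown in DMEM with fetal bovine serum. Because 1 edited line stood for the knockout, the effect of the lost gene and other differences of that line cannot be told apart. No source states that the replicates were separate cultures, so that the p-values measure the spread between these libraries, which may be technical.

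The values are FPKM, in which the fragments of a gene are divided by its length and by the size of the library, so that levels of different genes can be compared per length. They summed to 723705 to 764524 in the WT libraries and to 856314 to 999579 in those of MSTN-KO. How many fragments lay behind them is unknown, since low values shared no common step from which it could be read. *Mstn* itself lay between 0 and 0.0586 FPKM in all 6 libraries, too low to check the labels by RNA. For C11 cells the authors reported a disrupted *Mstn* target in genomic DNA and a lack of MSTN protein on a Western blot. The myoblast factors *Myod1* (90.8 to 167 FPKM) and *Myf5* (9.49 to 14.7 FPKM) were expressed in every library. Summed markers of endothelial cells stayed at or under 0.167 FPKM, those of macrophages at or under 2.45 FPKM (mostly *Cd68*), and those of neural and glial cells at or under 1.56 FPKM. Only 2 of 4 macrophage markers and 3 of 5 neural and glial markers were among the genes with values, so these sums are partial. Of 4 adipocyte markers, 2 were among the genes with values. *Plin1* stayed at or under 0.0639 FPKM. *Fabp4*, a fatty acid carrier, was low but called higher in MSTN-KO (log2 fold change 0.83, limma adjusted p = 0.00924). It was at 0.147 to 0.324 FPKM in WT and at 0.919 to 1.76 FPKM in MSTN-KO. Its mean of 0.740 FPKM is under the 1 FPKM of the rule for naming genes, so it was picked outside that rule. Its part in the results was not tested.

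Intermediate filaments are rope-like polymers of coiled-coil proteins. Desmin, the filament protein of differentiated muscle, ties the contractile units to each other, to the membrane and to the nuclei. Vimentin is the main filament protein of mesenchymal cells and is present in myoblasts, where nestin and synemin can join it or desmin as partners. The lamins form a mesh under the inner nuclear membrane. Lamins A and C are splice products of *Lmna* and are abundant in differentiated and stiff tissues, while the B-type lamins are made in nearly all cells. Keratins polymerize as pairs of a type I and a type II chain, and keratin 8 (type II) is most often paired with keratin 18 (type I).

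The sequences before the RefSeq start sites of *Des* and *Nes* are shown. Of the listed muscle filament genes (*Des*, *Vim*, *Nes* and *Synm*), these had lower values in MSTN-KO than in WT, and only *Des* was called. *Des* (ENSMUSG00000026208) lies on the plus strand of chromosome 1 from 75360329 to 75368579 (GENCODE M21, build GRCm38), and *Nes* (ENSMUSG00000004891) on the plus strand of chromosome 3 from 87971078 to 87980451. The *Des* stretch is chr1:75360042-75360291 (250 bases) and the *Nes* stretch chr3:87970843-87971077 (235 bases, ending before the first annotated exon base), both on build GRCm38.p6, written 5′ to 3′ on the plus strand. Capitals mark E-boxes (CANNTG, the site type of MyoD and myogenin) and GC boxes (GGGCGG or its complement CCGCCC, the site type of SP1).
Des: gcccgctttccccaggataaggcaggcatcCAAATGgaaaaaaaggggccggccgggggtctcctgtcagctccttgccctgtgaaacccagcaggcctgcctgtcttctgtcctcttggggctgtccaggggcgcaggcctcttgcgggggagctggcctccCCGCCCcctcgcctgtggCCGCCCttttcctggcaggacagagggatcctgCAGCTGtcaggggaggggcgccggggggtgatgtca
Nes: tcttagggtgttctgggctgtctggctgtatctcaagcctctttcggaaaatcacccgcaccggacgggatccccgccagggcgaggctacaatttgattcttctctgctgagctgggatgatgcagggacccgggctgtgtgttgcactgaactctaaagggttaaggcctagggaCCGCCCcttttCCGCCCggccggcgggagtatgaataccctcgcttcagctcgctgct

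The *Des* stretch held E-boxes from base -220 and base -36 before the start site and GC boxes from -87 and -69, and the *Nes* stretch held GC boxes from -73 and -62 and no E-box. Positions count back from the RefSeq start site. For *Nes* this site lies past the end of the 235 printed bases, so the boxes stand nearer to that end than their positions say. In the 250 bases before the *Vim* start site, not printed because an annotated first exon of *Vim* covers them, there was no E-box, a TATAAA from -32, a CCAAT from -196 and its complement ATTGG from -94. E-boxes also stood in the windows of *Synm* (from -193), *Lmnb2* (several, the first from -244), *Krt8* (from -184 and -111) and *Krt18* (from -214). The *Lmna* windows held none. *Lmnb2* was tested and not called, and *Synm*, *Krt8* and *Krt18* were not tested, so E-boxes were not particular to *Des*. Such letters are common. Of 32851 RefSeq windows of 250 bases, 66.2% held an E-box, 32.7% a GC box, 33.8% a CCAAT and 12.4% a TATAAA, on either strand. These matches are descriptions and were not tied to binding.

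The levels of the 8 genes fell into a wide order that was alike in both groups. *Vim* was highest in every library, at rank 26 to 34 of all genes, followed by *Lmna* (rank 103 to 133), *Des* (157 to 366) and *Nes* (491 to 832). *Lmnb1* and *Lmnb2* came next, and their FPKM ranges overlapped. Within a library *Lmnb2* was the lower of the pair, at 0.833 to 0.952 of *Lmnb1*, except in WT replicate 1 (1.02). *Synm* and *Krt8* were under 1 FPKM in all libraries. Together the 8 genes held 0.693% to 0.774% of the summed FPKM of a library, with overlapping groups.

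**Figure D1:**
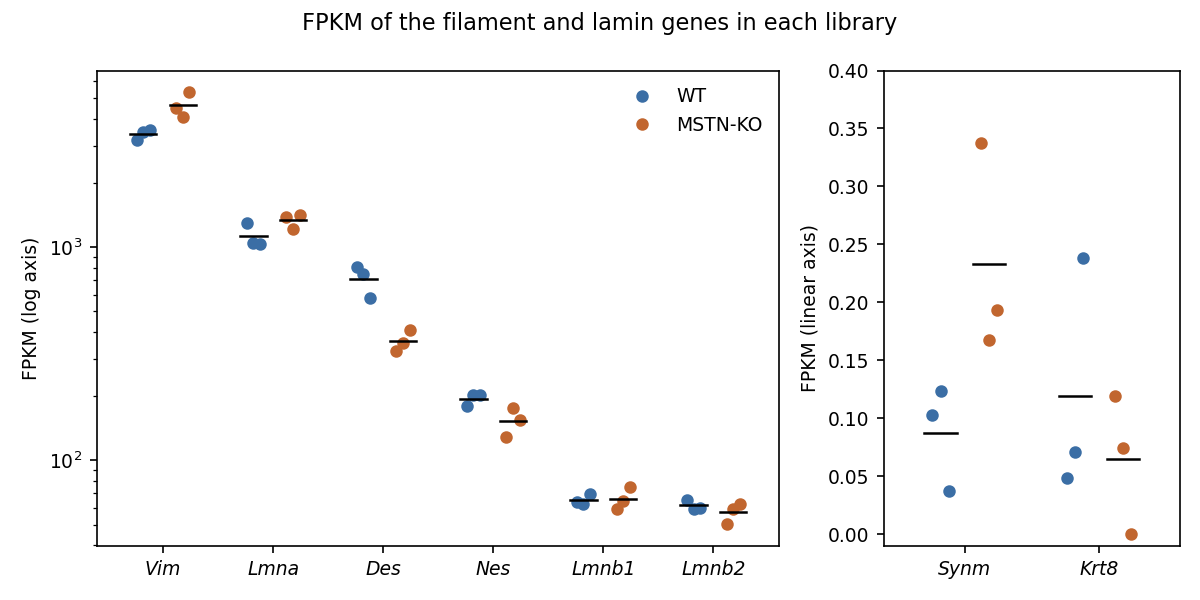
FPKM of each gene in the 3 WT (blue) and 3 MSTN-KO (orange) libraries, on a log axis at left and a linear axis at right for the lowest genes. Points are libraries and bars are means. The *Des* points of MSTN-KO (325 to 409 FPKM) all lie below those of WT (576 to 807 FPKM).

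The comparison asked whether the RNA of these genes differed between MSTN-KO and WT cells. *Des* was the 1 gene called among the 6 that reached 1 FPKM in at least 1 library and were tested, and it was lower in MSTN-KO. The 6 were fitted with limma on log2(FPKM + 1) together with all 10837 genes that passed this filter, and a gene was called at a Benjamini-Hochberg adjusted p under 0.05. Of all tested genes 17.7% were called, 8.78% higher and 8.96% lower in MSTN-KO, so that 1 of 6 was close to the background. The split was 952 higher and 971 lower, and 350 and 2367 with every library scaled to a sum of 1000000. By the study's rule for DEGs (a raw p under 0.05 with a log2 fold change beyond 1 in either direction), 0 of the 6 genes passed, against 3.51% of all genes. *Des* missed it narrowly and went beyond -1 while called in 7 of the 16 alternatives, among them quantile normalization (-1.16), scaling to 1000000 (-1.24) and the omission of MSTN-KO replicate 3 (-1.04). Scaling to 1000000 shifted the median over all genes by -0.25, and against that median *Des* was at -0.99.

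In the order of the replicate numbers, the WT libraries held 807, 748 and 576 FPKM of *Des* and those of MSTN-KO 325, 357 and 409 FPKM. The groups did not overlap, and WT replicate 3 was the lowest of its group. The means were 710.4 ± 120.1 FPKM (SD, n = 3) in WT and 363 ± 42.4 FPKM in MSTN-KO. This is a log2 fold change of -0.96 (standard error 0.15, 95% interval -1.28 to -0.63, limma adjusted p = 0.000995). The call held under all 16 alternatives tried, with values between -1.24 and -0.86 (limma adjusted p from 6.28e-05 to 0.0118). Without WT replicate 3 it was -1.10.
*Des* moved beside other muscle genes. In a list of 22 tested genes of muscle differentiation, 20 were called lower in MSTN-KO and 0 higher, with a median log2 fold change of -2.40. This list was drawn up with its fall in these libraries already known, so its direction is no independent evidence. The largest falls were those of *Mylpf* (-4.02), *Tnni1* (-3.76) and *Myl1* (-3.63), which encode a fast myosin light chain, slow troponin I and an essential myosin light chain. Relative to the WT mean, the list's median deviation was 0.32, 0.50 and -0.99 in WT replicates 1, 2 and 3 and -2.45, -2.50 and -2.04 in the MSTN-KO replicates, so that the WT library with the least *Des* also stood lowest in this list. In bulk RNA, fewer differentiated cells and less of these RNAs per cell cannot be told apart. *Des* also lies on chromosome 1, where the median log2 fold change was -0.25 over 627 tested genes, while the median over all genes was near 0. The part of either in the *Des* difference was not tested. A gene on the opposite strand, *Gm15179*, overlaps *Des*, and no source says that fragments were assigned by strand.

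*Vim* (ENSMUSG00000026728, chromosome 2, 13573927 to 13582826) was measured at 3175, 3481 and 3546 FPKM in WT and at 4494, 4061 and 5342 FPKM in MSTN-KO. Every MSTN-KO library was above every WT library, and the MSTN-KO libraries were the more spread. The means were 3401 ± 198 FPKM (SD, n = 3) in WT and 4632 ± 652 FPKM in MSTN-KO, and the log2 fold change of 0.44 (standard error 0.15, 95% interval 0.11 to 0.77) missed the threshold with a limma adjusted p of 0.0660. Without MSTN-KO replicate 2 it was 0.53 and passed (limma adjusted p = 0.0164), and it also passed once gene length and GC content were corrected for (0.48, limma adjusted p = 0.0188). Quantile normalization left 0.0006 and scaling every library to a sum of 1000000 left 0.15. That scaling shifted the median over all genes by -0.25. Against the median over all genes, *Vim* was at 0.41 with it and at 0.44 in the main fit.

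*Nes* was measured at 179.6, 203 and 202 FPKM in WT and at 129, 177 and 155 FPKM in MSTN-KO. The groups did not overlap, though MSTN-KO replicate 2 came close to WT replicate 1. From 195 ± 13.5 to 154 ± 24.2 FPKM (SD, n = 3), the log2 fold change was -0.35 (standard error 0.14, 95% interval -0.65 to -0.05) and missed the threshold with a limma adjusted p of 0.0943. It passed without MSTN-KO replicate 2 (-0.46, limma adjusted p = 0.0304), with quantile normalization (-0.51, limma adjusted p = 0.0287) and with scaling to 1000000 (-0.64, limma adjusted p = 0.00981). Against the median over all genes, *Nes* was at -0.38 with scaling to 1000000 and at -0.35 in the main fit. Thus *Des*, *Vim* and *Nes*, 3 of the 6 tested genes, had groups that did not overlap, as did 37.4% of all tested genes.

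**Figure D2:**
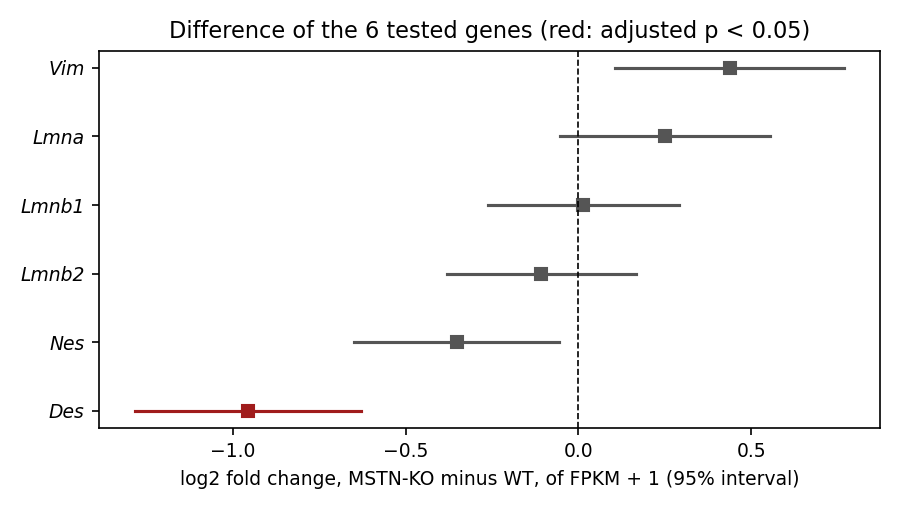
Log2 fold change of FPKM + 1 (MSTN-KO minus WT) of the 6 tested genes, with 95% intervals from limma. The interval of *Des* runs from -1.28 to -0.63, and the intervals of the 3 lamin genes include 0.

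*Synm* (ENSMUSG00000030554, chromosome 7, 67730160 to 67759742), whose product synemin links desmin and vimentin filaments to the membrane, was measured at 0.102, 0.124 and 0.0367 FPKM in WT and at 0.338, 0.168 and 0.193 FPKM in MSTN-KO. The MSTN-KO libraries were all above the WT libraries. At these levels the gene did not enter the test, and *Ttc23* and *Gm45102* overlap it on the opposite strand.

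*Des* made up less of the filament and lamin RNA in every MSTN-KO library. It gave 12.8% ± 2.05 (SD, n = 3) of the summed FPKM of the 8 genes in WT and 5.51% ± 0.488 in MSTN-KO, while *Vim* gave 61.2% ± 3.93 and 70.0% ± 1.60. For both genes the groups did not overlap, with *Des* at 10.5% to 14.5% in WT and 5.04% to 6.02% in MSTN-KO. The share of *Lmna* was 20.3% in each group. Shares of 1 sum are tied to each other, so that a lower share of 1 gene raises the rest.

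**Figure D3:**
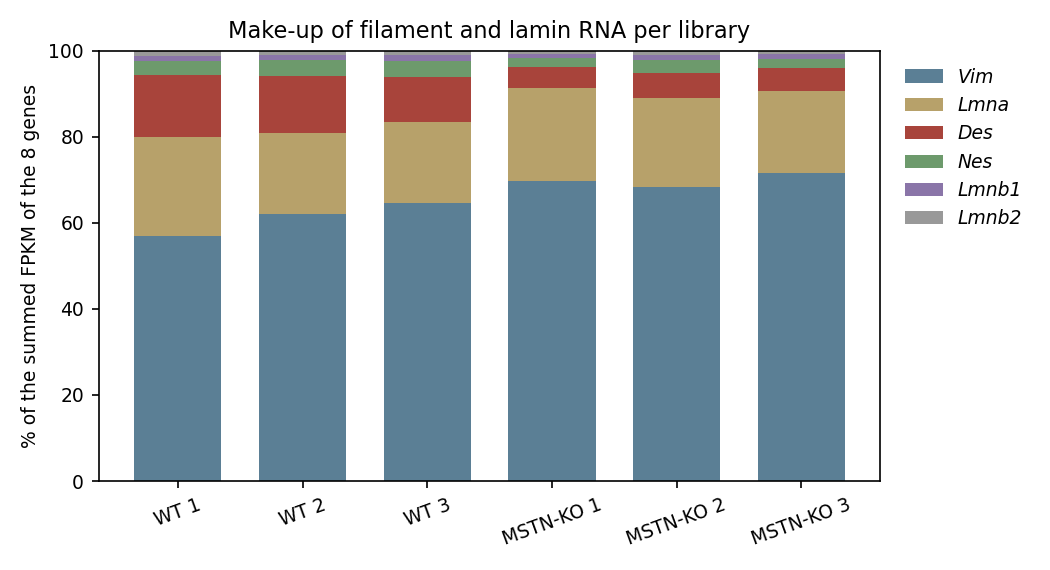
Share of each gene in the summed FPKM of the 8 genes, in percent, for each library (*Synm* and *Krt8* are too small to see). The *Des* band is 10.5% to 14.5% in WT and 5.04% to 6.02% in MSTN-KO.

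Ratios within a library do not change when the whole library is multiplied by 1 factor, and 5 chosen pairs of partners were compared. Quantile normalization, which does change them, moved the log2 difference of *Nes* to *Vim* from -0.79 to -0.51 and turned that of *Lmnb1* to *Lmna* from -0.24 to 0.09. The ratio of *Des* to *Vim* was 0.254, 0.215 and 0.162 in the WT libraries and 0.0722, 0.0879 and 0.0765 in the MSTN-KO libraries, a difference of -1.40 on the log2 scale. The ratio of *Nes* to *Vim* was 0.0566, 0.0584 and 0.0570 in WT and 0.0286, 0.0436 and 0.0291 in MSTN-KO, a difference of -0.79. It varied least among the WT libraries, and MSTN-KO replicate 2 lay between the other MSTN-KO libraries and WT. Both ratios were lower in all 3 MSTN-KO libraries than in any library of WT (exact permutation test, two-sided, p = 0.1, the smallest that 3 libraries against 3 allow, adjusted p = 0.167 over the 5 pairs). Without MSTN-KO replicate 2 the differences were -1.48 and -0.99. The ratio of *Synm* to *Des* was 2.48 higher on the log2 scale (exact permutation p = 0.1, adjusted p = 0.167), but its size rests on *Synm* values under 0.4 FPKM and was 1.14 with 1 FPKM added to both genes.

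**Figure D4:**
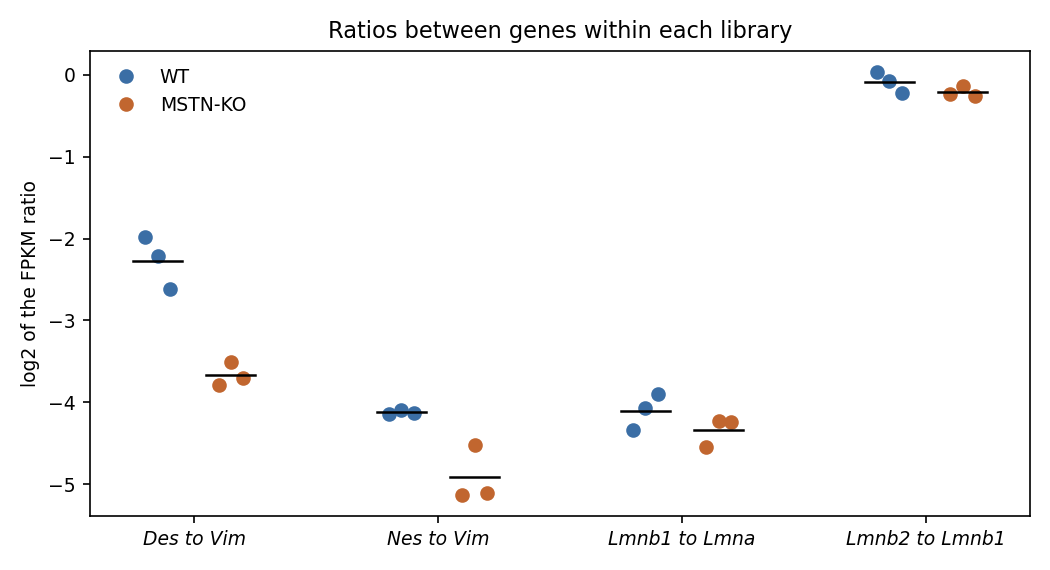
Log2 of the FPKM ratio of 4 gene pairs in the WT (blue) and MSTN-KO (orange) libraries, with bars at the means. The *Des* to *Vim* and *Nes* to *Vim* points of the groups do not overlap, whereas those of the lamin pairs do.

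None of the 3 lamin genes was called, and all had overlapping groups. *Lmna* (ENSMUSG00000028063, chromosome 3, 88480147 to 88509956) was measured at 1293, 1047 and 1041 FPKM in WT and at 1380, 1215 and 1416 FPKM in MSTN-KO. The log2 fold change was 0.25 (95% interval -0.05 to 0.55, limma adjusted p = 0.236) and turned to -0.17 with quantile normalization. WT replicate 1 lay among the MSTN-KO libraries. *Lmnb1* (ENSMUSG00000024590, chromosome 18, 56707813 to 56753424) had nearly the same mean in both groups, 65.3 ± 3.93 FPKM (SD, n = 3) in WT and 66.2 ± 7.87 FPKM in MSTN-KO. Its values were 63.7, 62.4 and 69.8 FPKM in WT and 59.1, 64.8 and 74.7 FPKM in MSTN-KO, and its log2 fold change of 0.01 had a 95% interval from -0.26 to 0.29 (limma adjusted p = 0.952). *Lmnb2* (ENSMUSG00000062075, chromosome 10, 80901203 to 80918245) was measured at 65.3, 59.5 and 59.8 FPKM in WT and at 50.3, 59.1 and 62.2 FPKM in MSTN-KO, with a log2 fold change of -0.11 (95% interval -0.38 to 0.17, limma adjusted p = 0.590). It was called lower only when the libraries were scaled to a sum of 1000000 (-0.39, limma adjusted p = 0.0253), which shifts the median over all genes by -0.25.
The ratios between lamin genes had overlapping groups as well. The ratio of *Lmnb1* to *Lmna* was 0.0492 to 0.0670 in WT and 0.0428 to 0.0534 in MSTN-KO (difference -0.24 on the log2 scale, exact permutation p = 0.3, adjusted p = 0.3). The ratio of *Lmnb2* to *Lmnb1* was 0.857 to 1.02 in WT and 0.833 to 0.912 in MSTN-KO (difference -0.12, exact permutation p = 0.2, adjusted p = 0.25).

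*Krt8* (ENSMUSG00000049382, chromosome 15, 101996698 to 102004482) was near 0 throughout, with 0.0481, 0.0704 and 0.238 FPKM in WT and 0.119, 0.0742 and 0 FPKM in MSTN-KO. The groups overlapped, and no difference was detectable at this level. A pseudogene of *Krt8* is annotated, as is *Gm36026* on the opposite strand, so that even these values are uncertain. Of 14 markers of epithelia, the usual site of *Krt8*, 9 were in the files and 1, the tight junction gene *Cldn3*, reached 1 FPKM. *Cldn3* fell from 4.67 ± 0.673 to 0.352 ± 0.339 FPKM (SD, n = 3; log2 fold change -2.09, limma adjusted p = 1.60e-05). The summed FPKM of the 9 was 5.29 to 6.74 in WT and 0.292 to 0.809 in MSTN-KO. E-cadherin (*Cdh1*) was at 0.163 to 0.421 FPKM in WT and at 0.0431 to 0.102 FPKM in MSTN-KO, and *Ocln*, *Cldn4* and *Tjp3*, all under 1 FPKM, were likewise lower in MSTN-KO without overlap. The groups overlapped for *Cldn7*, *Rab25*, *Ovol1* and *St14*. Among these, *Cldn7* and *Rab25* had higher means in MSTN-KO (0.0174 to 0.0553 and 0 to 0.0200 FPKM). The share of genes without overlap at such low levels was not measured. Other genes active in epithelia were well expressed in every library, such as *Krt19*, a type I keratin of simple epithelia (56.6 to 81.1 FPKM), and *Jup*, the junction gene of plakoglobin (66.9 to 112 FPKM). Neither is among these markers, and both were picked outside the rule for naming genes. *Jup* was lower in MSTN-KO without overlap (66.9 to 79.6 FPKM, against 90.0 to 112 FPKM in WT) but was not called (log2 fold change -0.40, limma adjusted p = 0.0516).

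Other genes of the filament family were few and mostly not called. Of 27 in the files, 11 were tested, 3 were called lower, 0 were called higher and 8 did not pass, with a median log2 fold change of -0.21. Over all tested genes, 8.96% were called lower and 8.78% higher. The share called lower here was thus above that of all genes, but it rests on few genes and no set test was run. The genes called lower were *Krt80* (43.4 ± 4.74 to 26.2 ± 4.22 FPKM, log2 fold change -0.71, limma adjusted p = 0.00521), *Sync* (17.9 ± 2.47 to 11.5 ± 1.17 FPKM, -0.60, limma adjusted p = 0.0145) and *Iffo2* (19.3 ± 1.51 to 13.7 ± 0.824 FPKM, -0.47, limma adjusted p = 0.0270). *Sync* encodes syncoilin, a muscle filament protein that binds desmin. Like *Des*, it had its lowest WT value in replicate 3 (15.1 FPKM, against 19.2 and 19.5 FPKM). Without WT replicate 2 or MSTN-KO replicate 1, 1 gene of this list was called.

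Among genes for filament linkers and chaperones, 15 were tested, 4 were called lower and 0 higher (median log2 fold change -0.18). This share called lower was also above the 8.96% of all tested genes, again on few genes and without a set test. *Dtna*, encoding alpha-dystrobrevin, which binds synemin at the dystrophin complex, was measured at 7.06 to 8.74 FPKM in WT and at 4.03 to 6.21 FPKM in MSTN-KO (log2 fold change -0.65, limma adjusted p = 0.0200). The plakophilin genes *Pkp2* and *Pkp1*, whose products sit at cell junctions, fell by 0.62 and 0.59 on the log2 scale (limma adjusted p = 0.0123 and 0.0161). The remaining call was *Fam83h*, a keratin-binding protein gene named only after its value was seen (-0.56, limma adjusted p = 0.0215). *Plec*, the gene of the linker plectin, was at 97.8 and 102 FPKM in WT and MSTN-KO (limma adjusted p = 0.736), and *Cryab*, encoding a desmin chaperone, at 484 and 433 FPKM (limma adjusted p = 0.417). Both were named after their values were seen. The number called was 1 without WT replicate 1 or MSTN-KO replicate 1 and 2 without WT replicate 2.
Of 22 tested genes for the nuclear envelope and lamin processing, 2 were called lower and 0 higher, with a median log2 fold change of -0.04. They were *Tor1aip2*, which encodes an activator of torsin (38.9 ± 0.933 to 26.6 ± 4.17 FPKM, -0.54, limma adjusted p = 0.0170), and *Icmt*, which methylates the farnesylated end of lamins (31.0 ± 5.47 to 22.4 ± 1.11 FPKM, -0.44, limma adjusted p = 0.0495). The count of 2 was 0 without WT replicate 2 or MSTN-KO replicate 1, and 1 without WT replicate 1 or MSTN-KO replicate 3. Of 25 cell cycle genes, set beside the lamins because B-type lamins are made in dividing cells, 2 were called higher (*Mcm7*, 0.50, and *Mcm5*, 0.47) and 2 lower (*Mcm4*, -0.92, and *Ccnb1*, -0.52), with a median of -0.07. Together 2 of them were called without WT replicate 2, WT replicate 3 or MSTN-KO replicate 1, and 1 without MSTN-KO replicate 3. The shares called in these lists stood beside 17.7% of all genes, with 8.96% called lower and 8.78% higher.

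**Figure D5:**
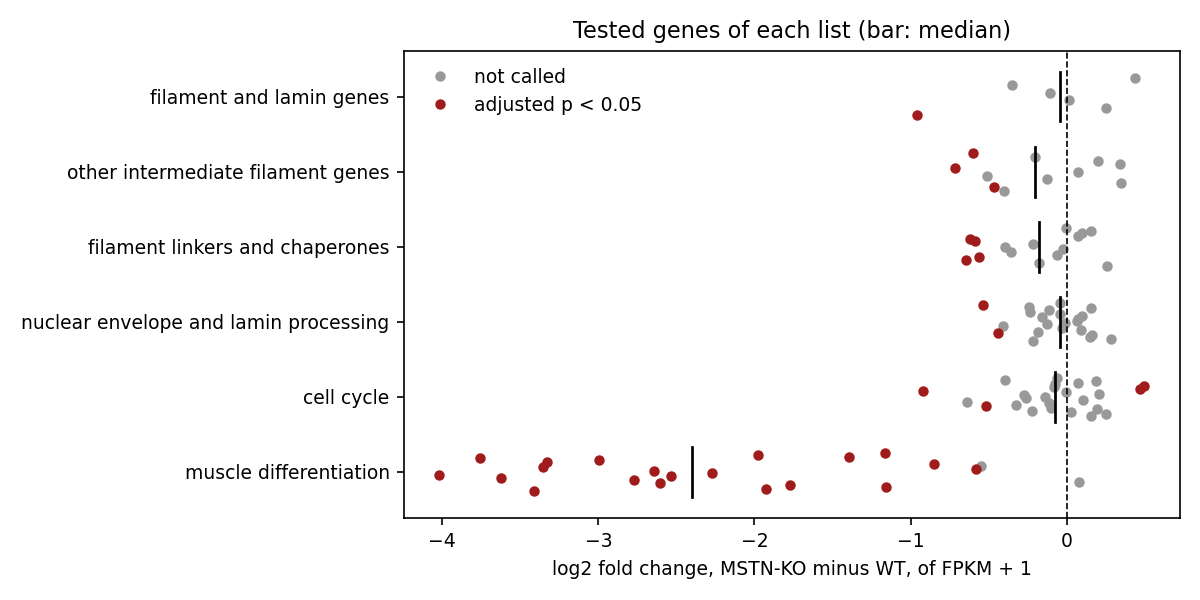
Log2 fold change of FPKM + 1 (MSTN-KO minus WT) of the tested genes of each list, in red where the limma adjusted p was under 0.05, with a bar at the median. The muscle differentiation genes have a median of -2.40, while the medians of the other 5 lists drawn lie between -0.21 and -0.04. The marker lists of other cell types, with at most 1 tested gene each, are not drawn.

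Across the 6 libraries, the genes whose log2 values followed *Des* most closely were *Dok7* (Pearson r = 0.997), *Tspan14* (0.997) and *Prrt4* (0.997), and 272 genes had an r over 0.95 with it. *Dok7* encodes an adaptor of the neuromuscular junction. Closest to *Vim* were *Ndufa9* (0.996), a respiratory chain gene, and *Rpl14* (0.996), a ribosomal protein gene, with 330 genes over 0.95. Closest to *Nes* were *Dgka* (0.991), *Dnajb6* (0.987) and *Cfl2* (0.987), and closest to *Lmnb1* were *Pimreg* (0.977), *Sephs2* (0.976) and *Rnaseh1* (0.962), with 32 and 6 genes over 0.95. The libraries form 2 groups of 3, so that for *Des* and *Vim* these values mostly follow the difference between the groups and are given as descriptions.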

How the data were processed

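The C2C12 RNA-seq comprised 3 WT and 3 MSTN-KO libraries. The authors sequenced on an Illumina HiSeq and deposited FPKM values per gene, 1 library per file, without pooling. The submitters' processing notes name Bowtie 0.12.2 and the genome build mm8 without their roles; the annotation, counter and gene filter are not given in the sources used here. GENCODE M21 (GRCm38) gave symbols, positions, lengths and GC content and matched 14445 of 14548 identifiers. Sequences before start sites came from RefSeq. The files hold no coordinates, so none were mixed.

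Genes that reached 1 FPKM in any library entered a limma fit (3.58.1, R 4.3.3) of log2(FPKM + 1), with a group coefficient and trended eBayes. Ratios were compared with exact permutation tests in scipy 1.17.1, adjusted over 5 pairs (Benjamini-Hochberg). The genes and lists were chosen with earlier results of these data known. From each list the 3 largest called rises and falls with a mean of at least 1 FPKM were named, and for *Des*, *Vim*, *Nes* and *Lmnb1* the 3 genes of highest Pearson r, of which 1 is not reported here. The labels number the replicates 1 to 3 in both groups. The alternatives were a pseudocount of 0.1, other filters, no trend, 3 scalings, a length and GC correction (mgcv 1.9.3), a block for the replicate number, and each library left out. Tested on simulated data of 10837 genes, the fit recovered 83.0% of changes of 1 and 97.0% of changes of 2 on the log2 scale. It called 5 unchanged genes. The 200 changed genes were drawn from the better expressed ones. Values were independent and normal with each gene's own residual SD, and libraries had no scaling difference. Recovery at low expression or under such differences was thus not examined.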

Additional observations from a re-analysis of the deposited data

How the results depend on the processing

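*Des* kept its direction and its call under all 16 alternatives. The number of filament and lamin genes called higher rose from 0 to 1 (*Vim*) with the length and GC correction, with and without the replicate block, and was 0 to 1 with single libraries left out. The number called lower rose from 1 to 2 (*Nes* added) with quantile normalization and with the block together with the correction, and to 3 (*Nes* and *Lmnb2*) with scaling to 1000000, and was 1 to 2 with libraries left out. Leaving out MSTN-KO replicate 2 brought both added calls. *Lmna* reversed to -0.17 with quantile normalization and -0.036 with scaling to 1000000. *Lmnb1*, near 0, reversed to -0.079 with quantile normalization, -0.036 with the 75th percentile, -0.27 with scaling to 1000000, -0.080 with the length and GC correction (also with the block), and lay between -0.074 and 0.092 with libraries left out. Scaling to 1000000 shifted the median over all genes by -0.25. Against the median over all genes, *Lmna* was at 0.22 with this scaling and 0.25 in the main fit. *Lmnb1* was at -0.013 and 0.015. The cause of the changes under the other settings was not tested. The 5 ratios kept their sign with 1 FPKM added and with each library left out. With quantile normalization, added after seeing the data, *Lmnb1* to *Lmna* reversed to 0.090, while *Des* to *Vim*, *Nes* to *Vim* and *Lmnb2* to *Lmnb1* kept their sign, as did all 4 of these ratios with the length and GC correction. Same-numbered libraries deviated with r = -0.0153, -0.128 and -0.142, so the numbers gave no sign of pairing. With the replicate block alone, 1 fewer nuclear envelope gene was called (1 in place of 2), and the adjusted p of *Vim* was 0.0506.

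With scaling to 1000000, 5 other filament genes (3 in the report), 8 linkers and chaperones (4), 5 nuclear envelope genes (2), 350 genes higher (952), 2367 lower (971) and 602 DEGs (380) were called. Quantile normalization gave 7 linkers. A pseudocount of 0.1 gave 1 nuclear envelope gene and 754 DEGs. No filter gave 2 linkers, 1 nuclear envelope gene and 4 epithelial markers (1). The filter on the mean and no trend each gave 1 nuclear envelope gene, and the length and GC correction gave 4. With single libraries left out, the counts were 1 to 4 other filament genes, 1 to 5 linkers, 0 to 2 nuclear envelope genes, 19 to 21 muscle genes, 1 to 5 cell cycle genes, 423 to 1184 genes higher, 606 to 1251 genes lower and 373 to 467 DEGs. The lowest count of all genes higher and lower came without WT replicate 2. The FPKM files give no fragment numbers, so the counting error of *Synm* and *Krt8* is unknown.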

Other observations

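Keratins pair a type I with a type II chain, and the keratins found in the files were unevenly split between the types. The 12 type I genes summed to 149.8, 129.7 and 123 FPKM in WT and to 146, 108 and 171 FPKM in MSTN-KO, with *Krt19* (56.6 to 81.1 FPKM), *Krt14* (24.6 to 52.1 FPKM) and *Krt13* (19.7 to 35.0 FPKM) as the main ones. The 5 type II genes summed to 48.9, 39.8 and 42.2 FPKM in WT and to 21.7, 29.6 and 27.8 FPKM in MSTN-KO, nearly all of it *Krt80*. The ratio of type I to type II was thus 3.07, 3.26 and 2.92 in WT and 6.73, 3.65 and 6.13 in MSTN-KO, without overlap. The type I sums of the groups overlapped, and the type II sums rest on *Krt80*, already called lower above, so the ratio largely restates that call. Keratins outside the files are not in these sums, how reads of close keratin paralogs were assigned is not stated, and this grouping was made after the values were seen. Of the neurofilament genes, *Nefl* was at 47.6 to 70.5 FPKM in WT and 67.1 to 78.7 FPKM in MSTN-KO (limma adjusted p = 0.142) and *Nefm* at 13.9 to 19.5 and 18.2 to 23.0 FPKM (limma adjusted p = 0.394), while *Gfap*, the filament gene of astrocytes, stayed at or under 0.103 FPKM.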
